A study of Mus musculus with 2 samples.

Results

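The 32 genes described here run the cholesterol economy of a cell: its synthesis, the sensing of sterols, the handling of cholesterol taken up in lysosomes, and its export. They were chosen by name from knowledge of the pathway, with earlier results of these data known. All 32 were found in both libraries as rows of the 32285 genes listed. By role they are 19 synthesis enzymes, 4 genes of sterol sensing, 5 of uptake, transport and storage, and 4 of efflux and its control by liver X receptors. They were measured by droplet single-cell RNA sequencing, which counts unique molecular identifiers (UMIs, 1 per captured transcript). The cells came from brains of untreated C57BL/6J mice aged 18 months and had been enriched for CD11b, a myeloid surface protein, with magnetic particles. The library labelled WT is of wild-type mice, and the library labelled KO is of mice without CD200R1 (CD200R1-/-), an inhibitory receptor of myeloid cells. The design text names a question about the role of this receptor in neuroinflammation, and the comparison of the libraries addresses it. How many mice stand behind each library is not given in the sources used here.

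Cholesterol does not cross the blood-brain barrier, so the brain makes its own, in the adult largely in glia. Carbon from acetyl-CoA passes through mevalonate and squalene to lanosterol and then to cholesterol. When sterols are scarce, SCAP carries the SREBP transcription factors to the Golgi, where they are released to raise the synthesis genes. When sterols are plentiful, INSIG proteins hold SCAP back, and oxysterols activate the liver X receptors, which raise the exporters ABCA1 and ABCG1 and the E3 ligase MYLIP, which lowers lipoprotein receptors. Microglia and macrophages take in much cholesterol with debris and depend on lysosomal export (NPC1, NPC2), on storage as esters (SOAT1) and on efflux.

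SREBP factors bind sterol regulatory elements in promoters, usually beside a CCAAT box bound by NF-Y. The RefSeq promoter table (build GRCm38.p6) has an entry for 26 of the 32 genes, among them 16 synthesis enzymes. The 250 bases before each start were searched on both strands for CCAAT and for TCACNCCAC, a form of the sterol regulatory element. Matches to the motifs do not overlap in the promoters shown. CCAAT was found for 15 of the 16 enzymes (93.8%) and for 37.5% of 27025 genes. TCACNCCAC was found for 1 of the 16 enzymes (6.25%), Hmgcs1, and for 1.22% of all genes. The promoters of Hmgcs1 (plus strand, chr13:119690101-119690350), Msmo1 (minus strand, chr8:64733579-64733828), Insig1 (plus strand, chr5:28071162-28071411) and Abca1 (minus strand, chr4:53159896-53160145) are shown, since the first 3 genes were highest in the same cell group and the exporter was not. Each reads 5′ to 3′ along its gene and ends at the base before the start, with capitals for matches to either motif or its reverse complement.
Hmgcs1: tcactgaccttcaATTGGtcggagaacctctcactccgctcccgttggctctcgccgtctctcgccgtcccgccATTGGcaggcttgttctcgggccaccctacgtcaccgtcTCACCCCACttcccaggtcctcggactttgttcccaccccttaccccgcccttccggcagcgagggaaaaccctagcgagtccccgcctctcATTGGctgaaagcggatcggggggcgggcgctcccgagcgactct
Msmo1: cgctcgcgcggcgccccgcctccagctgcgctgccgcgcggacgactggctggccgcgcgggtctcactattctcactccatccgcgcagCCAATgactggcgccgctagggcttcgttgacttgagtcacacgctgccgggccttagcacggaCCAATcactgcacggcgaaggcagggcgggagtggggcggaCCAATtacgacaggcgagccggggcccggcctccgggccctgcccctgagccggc
Insig1: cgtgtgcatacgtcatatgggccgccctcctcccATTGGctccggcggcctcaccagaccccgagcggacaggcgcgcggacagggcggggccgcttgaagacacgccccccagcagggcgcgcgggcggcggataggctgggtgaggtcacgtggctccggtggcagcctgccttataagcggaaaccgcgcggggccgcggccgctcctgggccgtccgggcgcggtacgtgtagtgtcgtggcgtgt
Abca1: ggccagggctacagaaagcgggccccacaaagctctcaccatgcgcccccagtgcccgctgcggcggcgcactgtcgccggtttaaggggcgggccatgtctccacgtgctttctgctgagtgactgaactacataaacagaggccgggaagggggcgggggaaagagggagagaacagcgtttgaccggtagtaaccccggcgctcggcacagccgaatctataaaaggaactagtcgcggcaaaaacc
Hmgcs1 holds the sterol regulatory element from 137 bases before its start and 3 CCAAT boxes, from 237, 176 and 45 bases before it. Msmo1 holds 3 CCAAT boxes and Insig1 has 1, while the Abca1 window has neither motif. A match is a string of letters in this window and was not tested as a binding site.

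The libraries held 127429919 (WT) and 131196245 (KO) UMIs in 18228 and 19159 barcodes, of which 16460 and 17117 cells were kept. The 32 genes had 194576 and 210485 UMIs. Over the kept cells Cd200r1 stood at 12.8 CPM (the UMIs of a gene scaled by the total UMIs of the cells) in the library labelled WT and 12.1 CPM in that labelled KO, a ratio of 0.944 (95% counting interval 0.877 to 1.02). The labels do not say which part of the gene is missing, and counts from the 3′ end may lie outside it, so the genotype was not checked by this value and the libraries are named by their labels throughout. With 1 library per group there is no replicate check and no test between genotypes. Intervals are exact, cover counting error only, and every ratio is a statement about these 2 libraries. The libraries shared 103 barcodes. Clusters were named from marker genes as "-like" classes, and unnamed clusters held 30.9% and 25.7% of kept cells. Although CD11b is myeloid, the preparation held many vascular and glial cells, and all classes carried some UMIs of microglial markers.

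Across the cell classes the synthesis enzymes were highest in cluster 19, a small group of cells with Npy, Frzb and Fabp7 among its leading genes. It held 259 cells labelled WT and 118 labelled KO, passed all 6 olfactory ensheathing markers and 5 of the astrocyte markers, and was therefore left unnamed. Over both libraries 18 of the 19 enzymes had their highest level there among the 15 classes or clusters compared. In the library labelled WT alone, Mvd and Dhcr7 were highest in the astrocyte-like class instead. Hmgcs1, which makes the substrate of the mevalonate step, stood at 351 CPM in cluster 19, 117 CPM in the astrocyte-like class and 17.2 CPM in the microglia-like class. Msmo1, a sterol demethylase, stood at 236, 134 and 19.8 CPM in the same order. Sqle, the squalene epoxidase, ranged most among the enzymes, from 95.1 CPM in cluster 19 to 1.68 CPM in the microglia-like class. Its next level was not in astrocyte-like but in ependymal-like cells (50.2 CPM). The summed level of the 19 enzymes was 1465 CPM (WT) and 2462 CPM (KO) in cluster 19, 966 and 656 CPM in the astrocyte-like class, and 213 and 219 CPM in the microglia-like class. Both groups, which carry glial markers, lay above every immune and vascular class in both libraries.

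Lbr and Ebp did not follow the other enzymes. Lbr, which is both a sterol reductase and a protein of the inner nuclear membrane, was highest in the neutrophil-like class (95.4 CPM) and second in cluster 13 (71.3 CPM), a group with Gkn3, Bmx and Sema3g among its leading genes and 9 endothelial markers. Ebp, a sterol isomerase, varied least, between 35.4 CPM in the choroid plexus-like class and 69.1 CPM in cluster 19. Pmvk, a mevalonate pathway kinase, was second in the mural-like class (60.7 CPM), the contractile cells of vessel walls. Fdps, which makes farnesyl diphosphate, was second in the choroid plexus-like class (56.9 CPM).

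**Figure D1:**
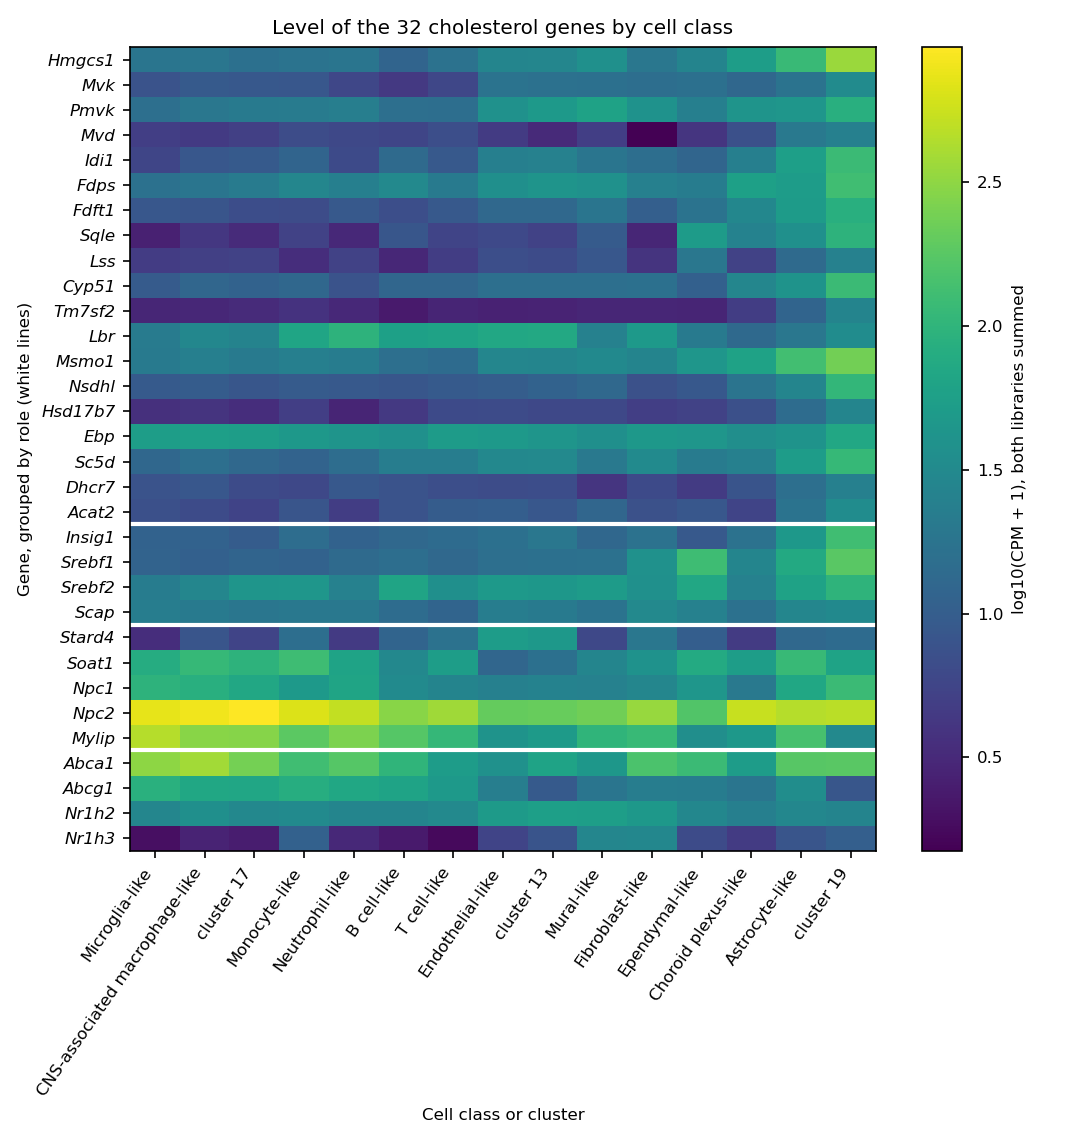
Each row is a gene and each column a cell class or cluster, and colour gives log10(CPM + 1) with both libraries summed. White lines separate synthesis enzymes, sterol sensing, uptake and storage, and efflux genes, and colours are to be compared along a row, since CPM is not corrected for transcript length. The enzymes brighten to the right, in astrocyte-like cells and cluster 19, while Npc2, Mylip and Abca1 are brightest on the left, in the myeloid classes.

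The sterol sensing genes also had their highest levels in cluster 19. Insig1, the sterol-dependent brake on SCAP, stood at 129.9 CPM in cluster 19, 44.96 CPM in the astrocyte-like class and 8.02 CPM in the ependymal-like class, its lowest level. Srebf1, whose product favours fatty acid genes, stood at 178 CPM in cluster 19 and 126 CPM in the ependymal-like class, although the latter was lowest for Insig1. Srebf2, whose product favours cholesterol genes, ranged from 97.1 CPM in cluster 19 to 21.1 CPM in the microglia-like class. Scap was nearly level in cluster 19 (30.5 CPM) and the fibroblast-like class (30.1 CPM).

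The genes of cholesterol handling showed another order. Npc2, a soluble carrier that hands cholesterol to NPC1 in the lysosome, was highest in cluster 17 (935 CPM), followed by the CNS-associated macrophage-like class (818 CPM) and the microglia-like class (740 CPM). Cluster 17 was led by MHC class II genes and Mrc1 and was left unnamed. Mylip was highest in the microglia-like class (451 CPM) and lowest in cluster 19 (29.8 CPM). Abca1, the exporter of cholesterol to apolipoproteins, was highest in the macrophage-like class (386 CPM), with 311 CPM in the microglia-like class and 38.3 CPM in the endothelial-like class. Abcg1, which exports to lipoprotein particles, was highest in the microglia-like class (89.0 CPM), and the monocyte-like class was next (80.8 CPM). Soat1 was highest in the monocyte-like class (124 CPM), with 113 CPM in the astrocyte-like and 111 CPM in the macrophage-like class. Npc1 was highest in cluster 19 (118 CPM), ahead of the microglia-like class (93.9 CPM). Stard4, a soluble sterol carrier, was highest in the endothelial-like class (52.0 CPM) and lowest in the microglia-like class (2.44 CPM). Of the liver X receptors, Nr1h2 was found in all classes, between 22.9 and 54.9 CPM, while Nr1h3 stood at 28.1 CPM in fibroblast-like and 27.7 CPM in mural-like cells and at 0.931 CPM in microglia-like cells.

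In the microglia-like class (3532 cells labelled WT, 4131 labelled KO) the module differed little between the libraries. A gene counted as higher or lower where the log2 ratio of the CPM values, each plus 10 CPM, reached 0.32 in size, among genes with at least 20 UMIs. A fold on this scale understates the change of low genes. None of the 32 genes was higher and none lower in the library labelled KO, while 1.10% of 16111 genes were higher and 1.21% lower. The median log2 ratio was 0.01 over the 32 genes and 0.03 over the enzymes, against 0.0023 over all genes. The counting interval of the ratio lay above 1 for 5 genes and below it for 2. Abca1 stood at 310.2 CPM (305 to 316, WT) and 311 CPM (306 to 316, KO), and Abcg1 at 88.7 and 89.2 CPM. Both exporters thus had overlapping counting intervals. Insig1 was farthest from even, at 11.6 CPM (10.6 to 12.7, WT) and 8.98 CPM (8.09 to 9.93, KO), a ratio of 0.773 (0.673 to 0.888). Soat1 stood at 82.6 CPM (WT) and 75.7 CPM (KO), a ratio of 0.916 (0.872 to 0.962). In the same cells the summed interferon-responsive markers stood at 258 CPM (WT) and 856 CPM (KO), so the small differences here lay beside a large one in another programme. The part of that programme in the values of Insig1 and Soat1 was not tested.

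The CNS-associated macrophage-like class (321 and 433 cells) was nearly as even, while fewer genes could be measured in its core cells. Of 30 genes measured none was higher, against 5.37% of all genes, and 2 were lower, against 8.56%. Abca1 stood at 384 CPM (363 to 406, WT) and 387 CPM (369 to 407, KO). The 2 lower genes were Nr1h2, at 42.5 CPM (WT) and 30.9 CPM (KO) with a ratio of 0.727 (0.566 to 0.935), and Stard4, at 9.66 and 5.11 CPM on 30 and 21 UMIs. Tm7sf2 and Nr1h3 had too few UMIs to be measured. This class carried microglial markers at 11064 (WT) and 13082 CPM (KO) and its own markers at 5966 and 4886 CPM, and their part in the 2 lower genes was not tested. In its 95 and 110 core cells, with microglial markers at 3939 and 3767 CPM, 12 members were measured. Of these 1 was higher (background 19.6%) and 3 were lower (background 17%), with a median log2 ratio of 0.03. Soat1 stood at 182 CPM (WT) and 125 CPM (KO) there, Mylip at 177 and 119.6 CPM, Nr1h2 at 43.1 and 24.9 CPM, and Msmo1 at 31.5 and 44.9 CPM. They rested on 110 and 75 UMIs for Soat1, 107 and 72 for Mylip, 26 and 15 for Nr1h2, and 19 and 27 for Msmo1. The summed enzymes stood at 237 and 317 CPM. In cluster 17 (327 and 600 cells) 2 of 31 genes were higher (background 4.69%) and 1 lower (background 6.22%). Srebf2 stood at 53.0 CPM (WT) and 36.0 CPM (KO) there, a ratio of 0.679 (0.561 to 0.823). Microglial markers in this cluster stood at 11178 and 14738 CPM and macrophage markers at 1155 and 911 CPM, and their part was not tested. Lbr and Fdft1, the squalene synthase, were the higher genes, at 20.7 and 28.8 CPM for Lbr and at 3.36 and 7.38 CPM for Fdft1.

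In the astrocyte-like class (757 and 1137 cells) the enzymes were lower in the library labelled KO. This difference shrank when single cells carrying markers of other classes were left out. Of the 19 enzymes 15 were lower and none higher, while 10.2% of all 13688 genes measured were lower and 11.2% higher. For all 15 the counting interval of the ratio lay below 1. Their median log2 ratio over the 19 was -0.45, against 0.01 over all genes. By this count and median, though not by the summed level in cluster 24, the clusters of this class differed less when taken alone. In cluster 3 (583 and 749 cells) 10 of 18 enzymes were lower and 1 higher (all genes 11.6% and 20.9%), with a median of -0.35. In cluster 24 (168 and 370 cells) 10 of 19 were lower and none higher (all genes 14.6% and 16.9%), with a median of -0.32. The summed enzymes stood at 787 CPM (WT) and 600 CPM (KO) in cluster 3 and at 1034 and 690 CPM in cluster 24. Over the whole class they stood at 966 and 656 CPM. Over the whole class Sqle stood at 55.3 CPM (46.7 to 65.1, WT) and 26.6 CPM (22.1 to 31.8, KO), a ratio of 0.481 (0.375 to 0.616). Msmo1 stood at 179 CPM (163 to 196) and 108 CPM (98.2 to 118). Lss, the lanosterol synthase, stood at 19.3 and 9.02 CPM, and Nsdhl, which acts after MSMO1, at 36.8 and 21.1 CPM. For none of these 4 enzymes did the intervals of the libraries overlap. Cyp51, Lbr, Ebp and Acat2 were the 4 enzymes short of this threshold. Srebf1 stood at 92.5 CPM (WT) and 62.2 CPM (KO), the other sterol sensing genes lay short of this threshold, and Abca1 was even at 177 and 173 CPM. Mylip was higher in the library labelled KO, at 93.7 and 172 CPM, as were Abcg1 at 22.7 and 40.3 CPM and Npc2 at 379.9 and 501 CPM.

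Marker levels moved with these values. In the astrocyte-like class the astrocyte markers stood at 11111 CPM (WT) and 8093 CPM (KO), microglial markers at 6513 and 8513 CPM, choroid plexus markers at 6811 and 10076 CPM, and mural markers at 429 and 825 CPM. Core cells were then taken, an alternative chosen after these values were seen. In them the markers of every other named class compared between the libraries were under 0.25 of their level in that class. Olfactory ensheathing, oligodendrocyte, oligodendrocyte precursor, platelet, erythroid, dendritic cell, NK cell and neuron markers were not limited. Astrocyte markers were allowed in cluster 19. In the astrocyte-like class the limit left 183 and 320 cells, with astrocyte markers at 15102 and 15860 CPM and microglial markers at 2150 and 2173 CPM, while choroid plexus markers still stood at 3325 and 8386 CPM. Olfactory ensheathing markers stood at 388 and 619 CPM in these cells, against 367 and 363 CPM over the class. The part of choroid plexus and olfactory ensheathing markers in the values of core cells was not tested. In core cells the summed enzymes stood at 1275 CPM (WT) and 1120 CPM (KO), the median log2 ratio was -0.23, and 8 of 19 enzymes were lower, where 15.5% of all genes were lower. Sqle stood at 78.0 and 52.6 CPM, Msmo1 at 277 and 211 CPM and Nsdhl at 54.4 and 30.03 CPM. Hmgcs1 stood at 160 and 189.9 CPM, with the larger value in the library labelled KO, and 2 enzymes, Cyp51 and Acat2, were higher there (background 12.8%). Abca1, even over the whole class, stood at 171 and 131 CPM in core cells. When each cell was named from its own marker UMIs instead, the median was -0.14 with 7 enzymes lower (background 18.1%), and without the filter on cells it was -0.050 with none lower (background 9.88%). Mylip stayed higher in core cells, at 19.5 and 42.8 CPM on 24 and 57 UMIs, whereas Abcg1 stood at 9.75 and 7.51 CPM. In sums over a class, fewer cells of a type and less RNA per cell cannot be told apart.

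Cluster 19 showed the opposite order, and there the median was similar in core cells. Of the 19 enzymes 16 were higher in the library labelled KO and none lower, while 9.68% of 11438 genes measured were higher and 15% lower. For 14 of the 16 the counting interval of the ratio lay above 1, the exceptions being Lss and Tm7sf2. The median log2 ratio of the enzymes was 0.68, against -0.03 over all genes. Mvd, the decarboxylase that ends the mevalonate steps, stood at 15.5 CPM (11.3 to 20.7, WT) and 45.2 CPM (33.3 to 59.9, KO), a ratio of 2.91 (1.90 to 4.48). Fdps stood at 101 CPM (89.8 to 113) and 206 CPM (179.8 to 235). Hmgcs1 stood at 299.9 CPM (280.3 to 320.5) and 491 CPM (450.1 to 535), and Msmo1 at 187 and 372 CPM. None of these 4 enzymes had overlapping intervals, and Hmgcs1 and Msmo1 were picked after their values were seen. The enzymes short of this threshold were Mvk, Lbr and Ebp. Insig1 was higher too, at 115 and 171 CPM, and Srebf2 at 89.3 and 119 CPM, while Srebf1 was lower, at 191 and 140.3 CPM. Mylip was lower at 34.8 and 16.0 CPM, on 101 and 17 UMIs, and no gene of efflux passed the threshold. The low number of 118 cells labelled KO limits these values.

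The olfactory ensheathing markers of cluster 19 stood at 15270 CPM (WT) and 18056 CPM (KO), and the choroid plexus markers at 2516 and 13375 CPM. Oligodendrocyte markers stood at 4307 and 4916 CPM and astrocyte markers at 4350 and 4929 CPM. In its 211 and 101 core cells the olfactory ensheathing markers were at 17489 and 19431 CPM and the choroid plexus markers at 2821 and 6023 CPM. The summed enzymes there stood at 1602 and 2615 CPM, with a median log2 ratio of 0.61 and 15 of 19 enzymes higher, where 11.8% of all genes were higher. Cluster 26, which shares the leading genes Npy, Fabp7 and Frzb at lower depth, held 145 and 81 cells. Its 12 measured enzymes had a median log2 ratio of 0.66, with 8 higher, where 30.6% of all genes measured in these few cells were higher. The part of the olfactory ensheathing, choroid plexus, oligodendrocyte and astrocyte markers in these values was not tested.

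**Figure D2:**
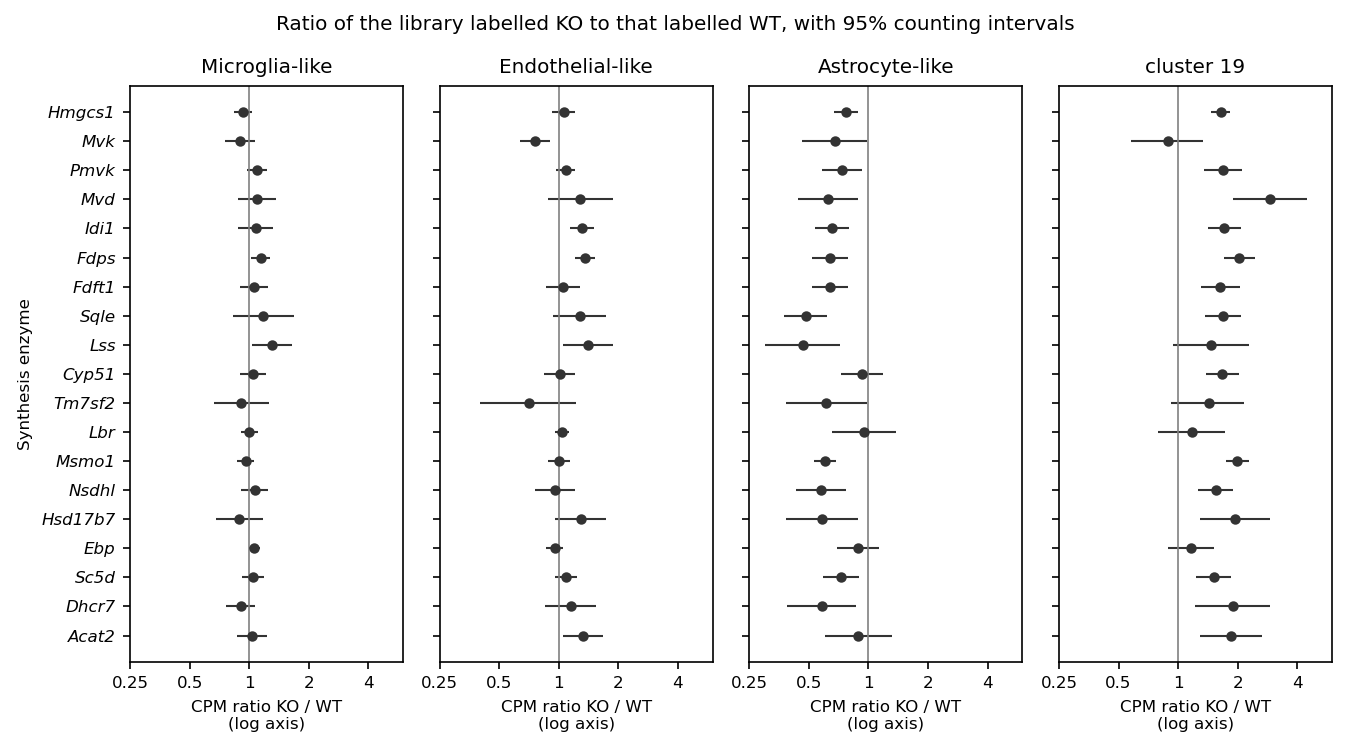
Points give the plain CPM ratio of the library labelled KO to that labelled WT for each synthesis enzyme, on a log axis, and bars the 95% counting interval. The microglia-like points lie near 1, most astrocyte-like points lie left of 1 and most points of cluster 19 lie right of it.

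**Figure D3:**
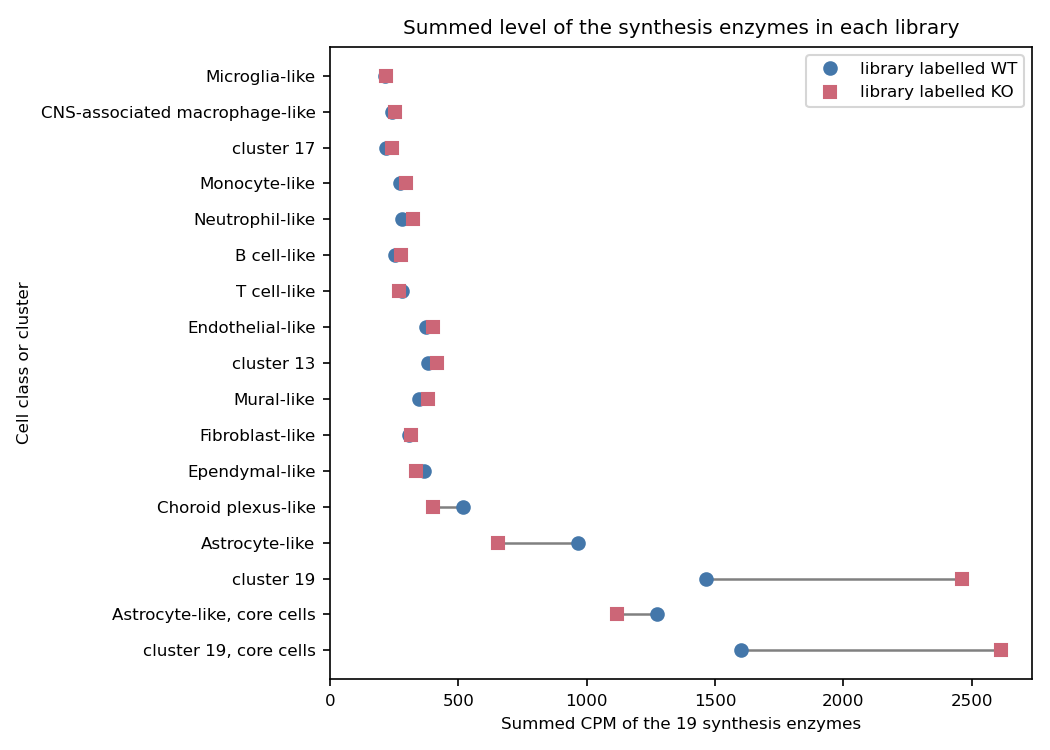
Each row is a class or cluster, the circle is the summed CPM of the 19 enzymes in the library labelled WT and the square that in the library labelled KO, on a linear axis from 0. The last 2 rows repeat the sums in core cells, where the astrocyte-like sums lie at 1275 and 1120 CPM and those of cluster 19 at 1602 and 2615 CPM.

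The vascular classes differed in few genes. In the endothelial-like class (1715 and 1698 cells) Fdps was the only higher gene of 32 (background 1.73%), at 30.8 CPM (28.3 to 33.4, WT) and 41.6 CPM (38.4 to 44.97, KO). Abca1 was the only lower one (background 1.43%), at 43.2 and 32.2 CPM, a ratio of 0.746 (0.665 to 0.836), beside microglial markers at 1918 and 1868 CPM. In cluster 13 (1150 and 930 cells) 2 genes were higher (background 2.31%) and none lower (background 1.70%). These were Hsd17b7, a sterol reductase, at 2.71 and 8.40 CPM, a ratio of 3.11 (1.96 to 5.05), and Cyp51, the lanosterol demethylase, at 12.5 and 18.2 CPM. In the mural-like class (1409 and 1383 cells) Sqle was higher (background 4.12%), at 6.41 and 10.8 CPM, and 3 genes were lower (background 4.20%). Abca1 was among them at 49.5 and 36.8 CPM, a ratio of 0.743 (0.612 to 0.900), but in mural-like core cells its log2 ratio was 0.10. The others were Acat2, a cytosolic thiolase, at 13.9 and 8.48 CPM, and Mvd at 5.34 and 2.27 CPM.

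In the choroid plexus-like class (424 and 554 cells) 10 of 32 genes were lower and none higher, where all genes leaned the same way, with 15.3% lower, 3.39% higher and a median log2 ratio of -0.10. Of the lower genes 9 were enzymes, with a median of -0.15 over all 19. Msmo1 stood at 75.6 CPM (WT) and 48.6 CPM (KO), and Mvk, the mevalonate kinase, at 18.3 and 7.23 CPM. Choroid plexus markers took 302698 and 362972 CPM of these cells, and their part in the lower values was not tested. In the ependymal-like class (373 and 897 cells) Npc2 was higher (1 of 31, background 4.32%), at 135 and 181 CPM, beside microglial markers at 1932 and 2504 CPM, whose part was not tested. Hmgcs1, at 33.2 and 21.9 CPM, and Acat2, at 10.8 and 5.53 CPM, were lower there (background 4.90%). The 2 clusters of this class differed when taken alone. In cluster 2 (265 and 698 cells) 6 of 12 enzymes were lower and none higher (all genes 23.6% and 18.3%), with a median of -0.34. In cluster 27 (108 and 199 cells) 2 of 18 were lower and 1 higher (all genes 4.45% and 4.90%), with a median of -0.04. Thinning to 1500 UMIs left out 195 and 540 shallower cells of this class, and the log2 ratio of Npc2 was -0.36 in the thinned cells and 0.38 in the same cells with all their UMIs.

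Blood and stromal classes were small, and many genes of all kinds passed the threshold in them. In the monocyte-like class (128 and 138 cells) 5 of 25 genes were higher (background 12.9%) and 6 lower (background 14.5%). Npc2 stood at 499 CPM (WT) and 851 CPM (KO) there, a ratio of 1.70 (1.55 to 1.87), while the monocyte markers stood at 2607 and 5905 CPM. Their part in this ratio was not tested. In the T cell-like class (197 and 243 cells) 7 of 24 were higher (background 22.2%) and 3 lower (background 9.66%), with Abca1 at 36.4 and 66.3 CPM. Microglial markers in these cells stood at 3034 and 5364 CPM, and their part was not tested. In cells thinned to 1500 UMIs the log2 ratio of Abca1 was -0.87 here, and in the same cells with all their UMIs it was 0.72. In the neutrophil-like class (178 and 88 cells) 3 of 23 were higher (background 12.7%) and 3 lower (background 26.2%), with Fdps at 17.6 and 35.8 CPM. Choroid plexus markers in these cells stood at 1859 and 6396 CPM, monocyte markers at 708 and 1714 CPM and neutrophil markers at 79541 and 116523 CPM, and their part was not tested. In the B cell-like class (151 and 75 cells) 3 of 16 were higher (background 16.8%) and 4 lower (background 30.3%). Abca1 stood at 121 and 49.9 CPM there, a ratio of 0.413 (0.252 to 0.649), and Abcg1 at 76.6 and 28.2 CPM. Microglial markers in the same cells stood at 3357 and 2604 CPM, and their part was not tested. In the fibroblast-like class (140 and 194 cells) 4 of 23 were higher (background 15.6%) and 3 lower (background 16.9%), with Npc1, the lysosomal membrane exporter, at 15.3 and 36.5 CPM. Microglial markers stood at 3101 and 4475 CPM and fibroblast markers at 5361 and 3488 CPM in this class, and their part was not tested.

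Among microglia-like states the module was also nearly level. Disease-associated microglia-like cells, a sub-cluster with Spp1, Lpl, Cst7, Axl and Csf1, held 587 and 817 cells and were set against the other large sub-clusters. In the library labelled WT 1 of 32 genes was higher in this state (background 3.55%) and none lower (background 1.77%). In the library labelled KO none was higher (background 1.96%) or lower (background 1.44%). At sub-cluster resolution 1 the counts were 3 higher and 0 lower (WT, all genes 5.10% and 6.83%) and 1 and 1 (KO, all genes 3.86% and 2.04%). The higher gene at the first resolution was Srebf2, at 26.6 CPM against 18.6 CPM, and the values labelled KO were 22.0 and 19.2 CPM. Soat1, which stores cholesterol as esters, stood at 96.5 against 76.3 CPM (WT) and 85.3 against 68.8 CPM (KO), ratios of 1.26 (1.18 to 1.36) and 1.24 (1.16 to 1.33). Soat1 thus had the same order in both libraries, where the median depth was 16674 UMIs against 7864.5 (WT).

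Among macrophage-like states Abca1 had unequal levels. These states were sub-clusters of the macrophage-like class and cluster 17 pooled. Of the sub-clusters with MHC class II markers, the one used carried macrophage markers at 2171 CPM, a choice made after the values were seen, and those under 1000 CPM were left out. Lyve1-high macrophage-like cells (188 and 236 cells) held Abca1 at 511 CPM (WT) and 468 CPM (KO), and MHC-II-high cells (107 and 175 cells) held it at 194 and 223 CPM. The ratio was 2.63 (2.18 to 3.20) in the library labelled WT and 2.10 (1.79 to 2.48) in that labelled KO, with median depths of 6129.5 and 6027 UMIs (WT) and 5183 and 4563 UMIs (KO). In cells thinned to 1500 UMIs it was 3.16 (WT) and 2.16 (KO). Npc2 had the other order, at 856 against 999.6 CPM (WT) and 977 against 1166 CPM (KO). Many genes of all kinds passed the threshold between these states. In the library labelled WT 5 of 17 members measured were higher in Lyve1-high cells and 2 lower (all genes 28.4% and 19.2%). In that labelled KO 6 of 21 were higher and none lower (all genes 25.1% and 16.1%).

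**Figure D4:**
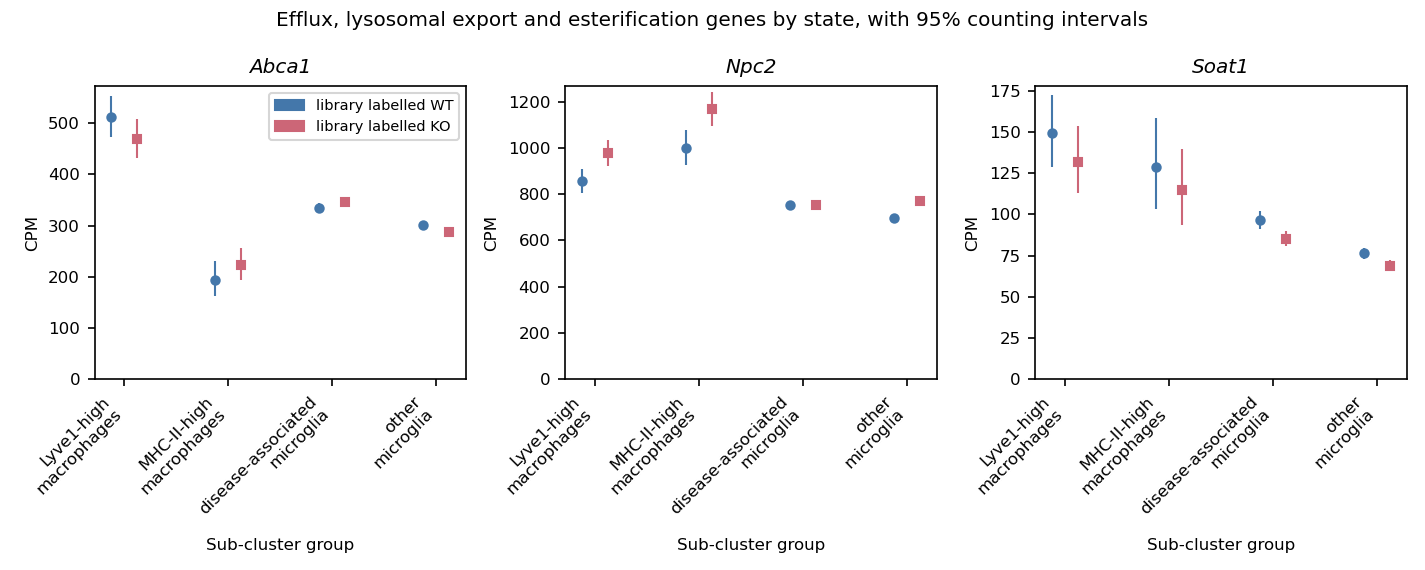
Circles (library labelled WT) and squares (library labelled KO) give the CPM of Abca1, Npc2 and Soat1 in 4 groups of sub-clusters, on linear axes from 0, and bars the exact 95% Poisson interval. Abca1 is highest in Lyve1-high macrophage-like cells in both libraries and lowest in MHC-II-high cells.

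Other genes of the pathway were followed as lists, and those named here were picked after their values were seen, outside the rule for named genes. In the microglia-like class none of the 33 measured of 35 other sterol genes, and none of 13 fatty acid genes, passed the threshold. Taken alone, cluster 4 of this class had 1 of 31 other sterol genes higher and none lower (all genes 1.46% and 1.72%). Cluster 5 of the class had none higher and 3 of 31 lower (all genes 1.22% and 1.54%). In the astrocyte-like class 9 of 13 fatty acid genes passed the threshold with lower values in KO-labelled cells (all genes 10.2%), with a median log2 ratio of -0.46. The desaturases Scd2, at 937 CPM (WT) and 595 CPM (KO), and Fads2, at 218 and 135 CPM, were among them. Of 32 other sterol genes measured in this class 4 were lower and 1 higher (all genes 10.2% and 11.2%), with a median of 0.03. Astrocyte markers in the astrocyte-like class stood at 11111 and 8093 CPM and microglial markers at 6513 and 8513 CPM. Their part in the values of both lists was not tested. In cluster 19 the fatty acid genes had 3 of 13 higher and none lower (all genes 9.68% and 15%), with Acss2, which makes acetyl-CoA from acetate, at 81.3 and 149 CPM. Of 30 other sterol genes measured in cluster 19, 7 were higher and 3 lower, against the same shares of all genes. The fatty acid genes of cluster 26 had another order, with 5 of 12 higher and 6 lower (all genes 30.6% and 21.6%). Their median log2 ratio was -0.35 there and 0.20 in cluster 19. In the macrophage-like class 3 of 26 other sterol genes were higher and 3 lower (all genes 5.37% and 8.56%), and Pltp, a phospholipid transfer protein, stood at 363 and 176 CPM. Endothelial markers in this class stood at 1364 and 495 CPM and erythroid markers at 1243 and 7.06 CPM, and their part was not tested.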

How the data were processed

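Expression was measured in 1 library labelled WT and 1 labelled KO. The values deposited by the authors are unnormalized UMI counts for each gene in each barcode. Cell Ranger 7.0.1 wrote them, per the file headers. The submitters' processing notes also list STAR, Seurat 3.1.1, GRCm38 and mm10, without saying how each was used. Cells were kept with at least 300 genes, 500 UMIs and at most 10% mitochondrial UMIs. Scrublet, as run in scanpy 1.11.5, called 141 and 542 doublets (0.849% and 3.07% of cells), far under the expected 14.6% and 15.3%, so doublets remain. Cells were clustered together on 2000 variable genes (30 components, 15 neighbours, Leiden resolution 1) without the 32 genes, the other sterol, fatty acid and interferon lists, Cd200r1, sex-linked and mitochondrial genes.

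A cluster was named where at least 3 markers were in 25% of its cells at a log2 fold of 1 or more. It stayed unnamed where the marker share of a second class reached 0.5 of its own, its leading genes were markers of another class, or its depth was low. These limits were set after the data were seen. UMIs were summed per library and class, for classes of at least 50 cells in each library, and turned into CPM with exact Poisson intervals. Ratios carry exact Clopper-Pearson intervals of the UMI split at the 95% level. The script was tested on simulated counts. Depth per class sets the precision, and PCR and capture errors are not covered. Named genes are members past the threshold (log2 ratio of 0.32), at most 4 each way in classes of at least 500 cells in each library and 2 each way in smaller ones, and each member in its highest class. Positions of the genes were matched in GENCODE release M21 (all 32), and promoters come from RefSeq on GRCm38.p6.

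The members, lists and markers were chosen with earlier results of these data known. Of 17 alternatives, 12 were planned and 5 were added after seeing the data (core cells, each of 2 astrocyte-like clusters alone, cluster 26, and cells of at least 1500 UMIs without thinning). Thinning leaves out cells under 1500 UMIs.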

Additional observations from a re-analysis of the deposited data

Results flagged for a closer look

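The synthesis enzymes differed in opposite directions between the libraries in 2 cell groups that carry glial markers. Their median log2 ratio (library labelled KO over that labelled WT) was -0.45 in the astrocyte-like class and 0.68 in cluster 19. The difference between the groups was not tested, since there is 1 library per group. In core cells, chosen by a limit on the markers of other compared classes in each cell, the medians were -0.23 and 0.61. In clusters 3 and 24 of the astrocyte-like class, each alone, the medians were -0.35 and -0.32.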

How the results depend on the processing

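The results were recomputed under 17 alternatives. Of the values of the main results, 97 moved by less than the counting error or stayed within 1.5 times, and 13 moved. Of the other values, 1178 stayed so, 342 moved and 9 changed sign. A change of sign was counted only for log2 ratios past the threshold in the main run. Smaller ones that changed sign stand among the other counts. The enzyme median of the macrophage-like class, for example, ranged from -0.037 to 0.12. The 15 lower enzymes of the astrocyte-like class became 5 with a pseudocount of 50 CPM, 8 at clustering resolution 2, 7 in cells thinned to 1500 UMIs, and 8 in core cells. Cluster 3 alone and cluster 24 alone each had 10 lower. Thinning left out 517 (WT) of 757 and 664 (KO) of 1137 cells, and in the remaining cells with all their UMIs 15 were lower. With each cell named from its own marker UMIs they became 7, also with doublet calls kept, and 0 without the filter on cells, where the median was -0.050. That median was negative under all alternatives run, from -0.63 to -0.050. The 16 higher enzymes of cluster 19 became 10 in thinned cells, 8 in cluster 26 and 1 where unfiltered cells were named by their own markers (40 and 25 cells), with a median of 2.06 there. Its median lay between 0.44 and 2.06. In the microglia-like class 1 gene, Insig1, was lower with a pseudocount of 1 CPM. Single genes that changed sign were Abcg1 in the astrocyte-like class (-0.20 unfiltered with own markers, -0.17 in core cells), Abca1 in the mural-like class (0.10 under both), Npc2 in the ependymal-like class (-0.36 thinned), Hmgcs1 there (0.0085 with own markers, with and without doublet calls), Abca1 in the T cell-like class (-0.87 thinned) and Mylip in cluster 26 (0.58). In the unthinned cells of at least 1500 UMIs Npc2 stood at 0.38 and Abca1 in the T cell-like class at 0.72. The cause was not tested. After thinning 26 of 32 members kept the same highest class. Among those that did not were the enzymes Mvd, then highest in the astrocyte-like class, and Ebp, then highest in cluster 17. Naming kept cells by their own markers gave no value for the macrophage-like class and cluster 19, and no cluster of the macrophage-like class was a core cluster. No paired analysis was possible because each group has 1 library, and no replicate could be left out. Depth limits the small classes and the enzymes at a few CPM.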

Other observations

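Insig1 is a sterol-regulated gene that is not an enzyme of the pathway, and its levels over the 15 compared classes and clusters were set beside those of the other members, a choice made after the values were seen. The order of classes was most like that of Insig1 for Cyp51 (Spearman's rho 0.90), Idi1 (0.80) and Sc5d (0.79). It was least like it for Abcg1 (-0.56) and Mylip (-0.48). These are descriptions over 15 points that share 2 libraries and differ in depth.

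Oligodendrocyte-like cells (28 and 62) were too few to be compared between the libraries, and their levels were taken over both. Hmgcs1 stood at 117 CPM, close to the astrocyte-like class, and Npc1 stood at 165 CPM and Abcg1 at 115 CPM, above every compared class. Platelet-like cells (290 and 36) held Npc2 at 483 CPM and Mylip at 232 CPM. Microglial markers in these cells stood at 12063 CPM (WT) and 7942 CPM (KO), and platelet markers at 6750 and 1971 CPM. Erythroid markers stood at 137669 and 466390 CPM. The part of these other markers in the 2 values was not tested.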
